A study of Homo sapiens with 6 samples.

Results

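Interferon-stimulated genes are the genes that a cell switches on when interferon, or nucleic acid of a virus inside the cell, is sensed. A set of 44 such genes, picked by symbol from the 58884 genes listed for these cells, was followed in 3 libraries of KYSE450 cells and 3 libraries of KEAP1null-KYSE450 cells. KYSE450 is an established human esophageal squamous cell carcinoma (ESCC) line with wild-type NRF2. KEAP1null-KYSE450 is a single clone derived from it by CRISPR-Cas9 editing with a guide to exon 2 of KEAP1, the adaptor that marks the transcription factor NRF2 for degradation. Both lines grew in RPMI1640 medium with serum and antibiotics, and no interferon or other agent is named for the sequenced libraries. The comparison asked which transcripts differ between the clone and its parental line, and because a single clone was sequenced, loss of KEAP1 and other properties of that clone cannot be told apart.

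In the textbook pathway, type I and type III interferons bind their receptors, and the kinases JAK1 and TYK2 phosphorylate STAT factors such as STAT2. A complex that holds STAT2 and IRF9 then binds the interferon-stimulated response element (ISRE) in promoters of the target genes. Many target genes, among them OASL, ISG15 and the IFIT genes, also answer directly to IRF1, IRF3 and IRF7, so part of the program can be active at a low level in epithelial cells that received no interferon. Its products sense foreign RNA, degrade it, block its translation, keep virus particles from crossing membranes or tag proteins with the ubiquitin-like protein ISG15.

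To show the element that the members share, sequences around it were taken from RefSeq promoters (250 bases before to 50 bases after a start site, GRCh38.p14) for 34 of the 44 genes. The core of the ISRE was searched as GAAA, any 2 bases and GAAA again, on both strands, and overlapping matches were kept. It was present in a promoter of 24 of these 34 genes (70.6%) and in 1195 of 27305 genes in the promoter table (4.38%). The windows below are 30 bases long and are written 5′ to 3′ in the direction of the gene, with the matched letters in capitals. Capitals that begin with TTTC are the same core on the other strand. The first 7 belong to the genes that fell past both thresholds defined below and had a promoter in the table, and the last 3 to genes that rose or did not separate the lines.
IFITM1 (chr11:314024-314053, plus strand): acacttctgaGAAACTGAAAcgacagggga
IFITM3 (chr11:320876-320905, minus strand): aaactgttgaGAAACCGAAActactgggga
SAMD9 (chr7:93118096-93118125, minus strand): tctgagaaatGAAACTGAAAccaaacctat
ISG15 (chr1:1013374-1013403, plus strand): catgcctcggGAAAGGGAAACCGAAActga
ISG20 (chr15:88638937-88638966, plus strand): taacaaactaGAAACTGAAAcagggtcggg
OAS3 (chr12:112938321-112938350, plus strand): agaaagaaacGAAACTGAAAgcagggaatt
HERC5 (chr4:88456984-88457013, plus strand): ctcattacagTTTCCTTTTCCTTTTCgatt
IFI44L (chr1:78620365-78620394, plus strand): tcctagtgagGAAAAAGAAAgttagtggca
IFI44 (chr1:78649761-78649790, plus strand): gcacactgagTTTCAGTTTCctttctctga
DTX3L (chr3:122564322-122564351, plus strand): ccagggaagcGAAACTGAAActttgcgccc

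Each value below is a normalized count, which is a gene's read count divided by 1 scaling factor per library. The libraries held between 53027359 and 61543442 reads, and 3 reads correspond to between 2.77 and 3.21 normalized counts. Fold changes are on the scale of log2(normalized count + 1), as KEAP1null-KYSE450 minus KYSE450, and come from limma, fitted across the 16701 genes whose mean reached 10. A gene was called when its Benjamini-Hochberg adjusted p was under 0.05 and its fold change was at least 2 in either direction. Separate cultures are not stated for the libraries, so p-values measure only the spread between these libraries. KEAP1 itself stood at 5760, 5226 and 5146 in KYSE450 libraries and at 5737, 4906 and 5317 in KEAP1null-KYSE450 libraries, and counts per gene do not show an edit. NQO1, a classical NRF2 target, was at 16625 ± 817 (SD, n = 3) in KYSE450 cells and at 107758 ± 3247 in KEAP1null-KYSE450 cells. All 8 squamous epithelium markers examined were detected in each library, while leukocyte and plasmacytoid dendritic cell markers, 7 in all, did not exceed 10.2.

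Many of the interferon-stimulated genes were lower in KEAP1null-KYSE450 cells, others did not separate the lines, and a few were higher. Of the 44 genes, 38 passed the filter on low values and 6 did not (MX2, RSAD2, CMPK2, XAF1, EPSTI1 and IFI27). Among the 38, 10 fell past both thresholds (26.3%), where 5.98% of all genes tested did. The 10 were IFITM1, SAMD9, OASL, IFITM3, IFIT2, ISG15, ISG20, OAS2, OAS3 and HERC5. Only IFI44L rose past both thresholds among these 38 genes, against 12.2% of all genes tested. Among genes with a mean of at least 100, 7.09% rose and 5.53% fell past both thresholds. Of the 30 members at that level, 1 rose and 9 fell. By adjusted p alone, 19 of the 38 genes were lower and 3 were higher, and the same rule took 25.5% and 24.3% of all genes tested. These counts became 23 and 1 under quantile normalization, 14 and 1 by DESeq2 and 13 and 2 by edgeR on 4 libraries. Those 4 were KYSE450 libraries 1 and 3 and KEAP1null-KYSE450 libraries 1 and 2. On all 6 libraries, an addition made after seeing the data, edgeR and DESeq2 each gave 19 and 3. The lines did not overlap, with KEAP1null-KYSE450 libraries lower, for 21 of the 38 genes, where the background was 29.3%. For 4 of them the KEAP1null-KYSE450 libraries were all higher, against a background of 28.4%. The change was below 0 in 31 of the 38 genes, against 49.7% of all genes tested, and those signs include genes close to 0 such as DTX3L, STAT2 and IFITM2. The median log2 fold change was -0.57 over the 38 genes and 0.00 over all genes tested, and single genes ran from -2.51 to 2.74. In bulk libraries, fewer cells that express a gene and less RNA of it per cell cannot be told apart.

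**Figure D1:**
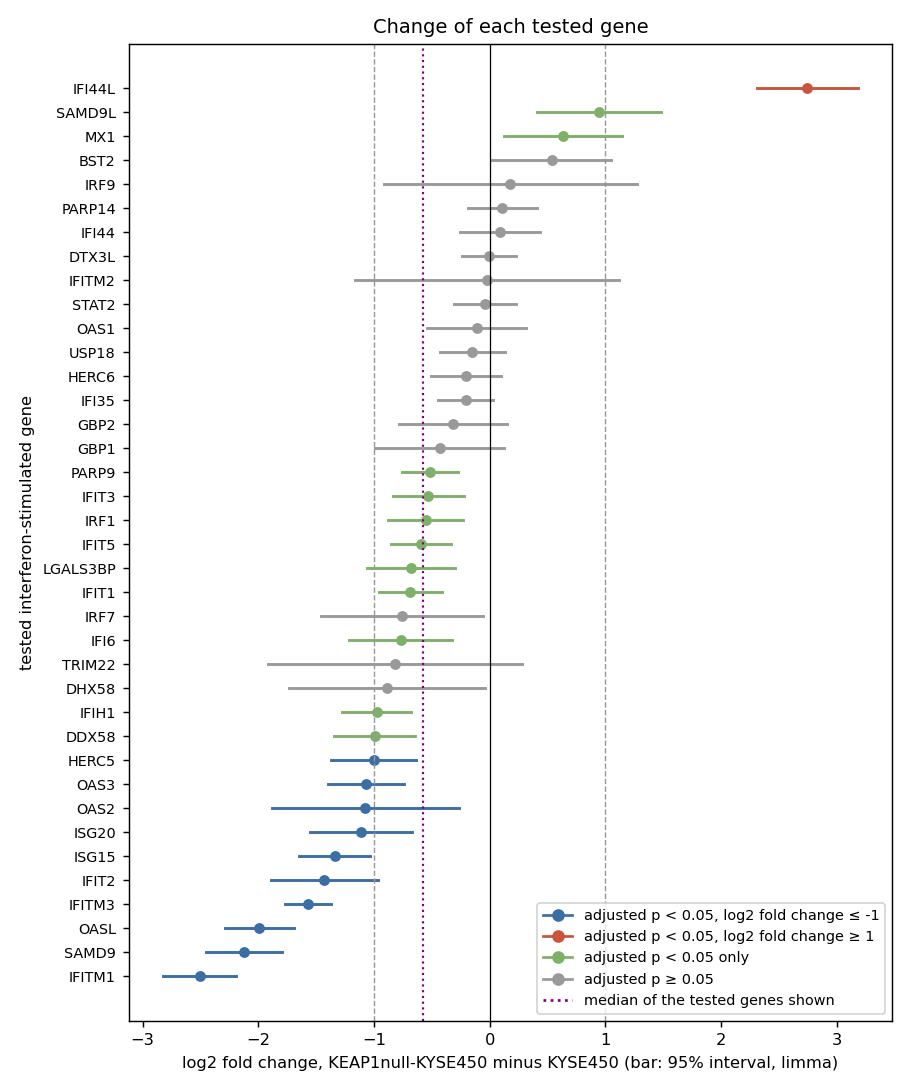
Log2 fold change (KEAP1null-KYSE450 minus KYSE450, horizontal axis) of each of the 38 tested interferon-stimulated genes, with 95% intervals from limma as bars. The 10 genes past both thresholds on the lower side reach -2.51 for IFITM1, IFI44L at 2.74 stands alone on the higher side, and the dotted line marks the median of -0.57.

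The membrane proteins of the IFITM family, which hinder the fusion of viruses with endosomal and surface membranes, held the largest fall among the 38 genes. IFITM1 (chromosome 11, 310041 to 315272) stood at 2004, 2186 and 1730 in KYSE450 libraries and at 422, 307 and 318 in KEAP1null-KYSE450 libraries (log2 fold change -2.51, SE 0.15, adjusted p = 3.8e-08). IFITM3 (chromosome 11, 319676 to 329475) was the more abundant gene, at 10238, 10402 and 9387 against 3589, 3278 and 3242 (-1.57, SE 0.09, adjusted p = 3.9e-08). For both genes every KEAP1null-KYSE450 library lay far below every KYSE450 library. Per kilobase of annotated exon, the mean level of IFITM3 was 3519 in KYSE450 and 1185 in KEAP1null-KYSE450 cells, and that of IFITM1 was 1185 and 209. IFITM2, their neighbour, was between 8 and 18.2 in the 6 libraries (-0.03, SE 0.53). BST2, or tetherin, which holds budding virions at the cell surface, was at 57.8, 70.8 and 74.6 in KYSE450 libraries and higher in each KEAP1null-KYSE450 library, at 89.5, 114 and 91.8 (0.53, SE 0.24, adjusted p = 0.080), and did not pass the test. Of all 100-base stretches in the IFITM1 exons, 50.1% also occur in IFITM3 or in an overlapping gene model. Reads from these stretches could have been left uncounted or given to another gene.

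Among the OAS enzymes, which answer double-stranded RNA, 3 of 4 fell. OASL (chromosome 12, 121017763 to 121039246), which lacks the synthetase activity of its relatives and acts with the sensor RIG-I, was at 2807, 2609 and 2121 in KYSE450 libraries and at 651, 704 and 539 in KEAP1null-KYSE450 libraries (-1.99, SE 0.14, adjusted p = 1.7e-07). OAS3 (chromosome 12, 112938051 to 112976460), the family member that best activates RNase L, was at 3262, 2258 and 2222 against 1410, 1134 and 1109.7 (-1.07, SE 0.15, adjusted p = 9.9e-05). OAS2 gave 186, 91.0 and 83.0 against 88.6, 43.8 and 37.3 (-1.08, SE 0.37, adjusted p = 0.029). The lines were apart for OASL and OAS3, whereas for OAS2 the first KEAP1null-KYSE450 library lay above the lowest KYSE450 library, and its change was -0.71 (adjusted p = 0.12) without KYSE450 library 1, -0.95 (0.097) without KEAP1null-KYSE450 library 2 and -0.84 (0.12) without library 3. OAS3 was at -0.89 without KYSE450 library 1, under the fold threshold. OAS1 did not separate the lines, at 191, 187 and 141 against 138, 174 and 165 (-0.11, SE 0.20, adjusted p = 0.66).

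SAMD9 and SAMD9L are paralogs beside each other on chromosome 7 that restrict poxviruses and slow translation, and they moved in opposite directions in the fit of the 6 libraries as deposited. SAMD9 (93099513 to 93118023) stood at 1149.7, 1055 and 1009 in KYSE450 libraries and at 278, 199 and 266 in KEAP1null-KYSE450 libraries (-2.12, SE 0.15, adjusted p = 2.5e-07). SAMD9L (93130056 to 93148385) was at 89.8, 71.8 and 52.2 against 147, 126 and 132 (0.94, SE 0.25, adjusted p = 0.0067), higher in each KEAP1null-KYSE450 library but under the 2-fold threshold, which it passed without KYSE450 library 1 (1.13). Under quantile normalization SAMD9L was at 0.58 (adjusted p = 0.066). On 4 libraries its adjusted p was 0.039 by edgeR and 0.065 by DESeq2. No ISRE core was found in the promoter window of SAMD9L, while SAMD9 holds the one printed above.

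The IFIT proteins bind viral RNA ends and block translation, and all 4 were lower by adjusted p, 1 of them past both thresholds. IFIT2 (chromosome 10, 89283694 to 89309271) was at 2371, 1884 and 1206 in KYSE450 libraries and at 668, 787 and 524 in KEAP1null-KYSE450 libraries (-1.43, SE 0.21, adjusted p = 0.00015). IFIT1, which grips RNA with an unmethylated cap, was at 1544, 1756 and 1481 against 893, 1157 and 932 (-0.69, SE 0.12, adjusted p = 0.00065). IFIT3, the scaffold of the IFIT complex, was at 1031, 972 and 747 against 570.2, 666 and 655 (-0.53, SE 0.14, adjusted p = 0.0078). These falls left no overlap between the lines. IFIT5 was likewise lower in each KEAP1null-KYSE450 library, at 893, 911 and 769 against 558, 582 and 558 (-0.59, SE 0.12, adjusted p = 0.0013). On 4 libraries the adjusted p of IFIT3 was 0.068 by edgeR and 0.071 by DESeq2. Those of IFIT1, IFIT2 and IFIT5 stayed under 0.05 by both.

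**Figure D2:**
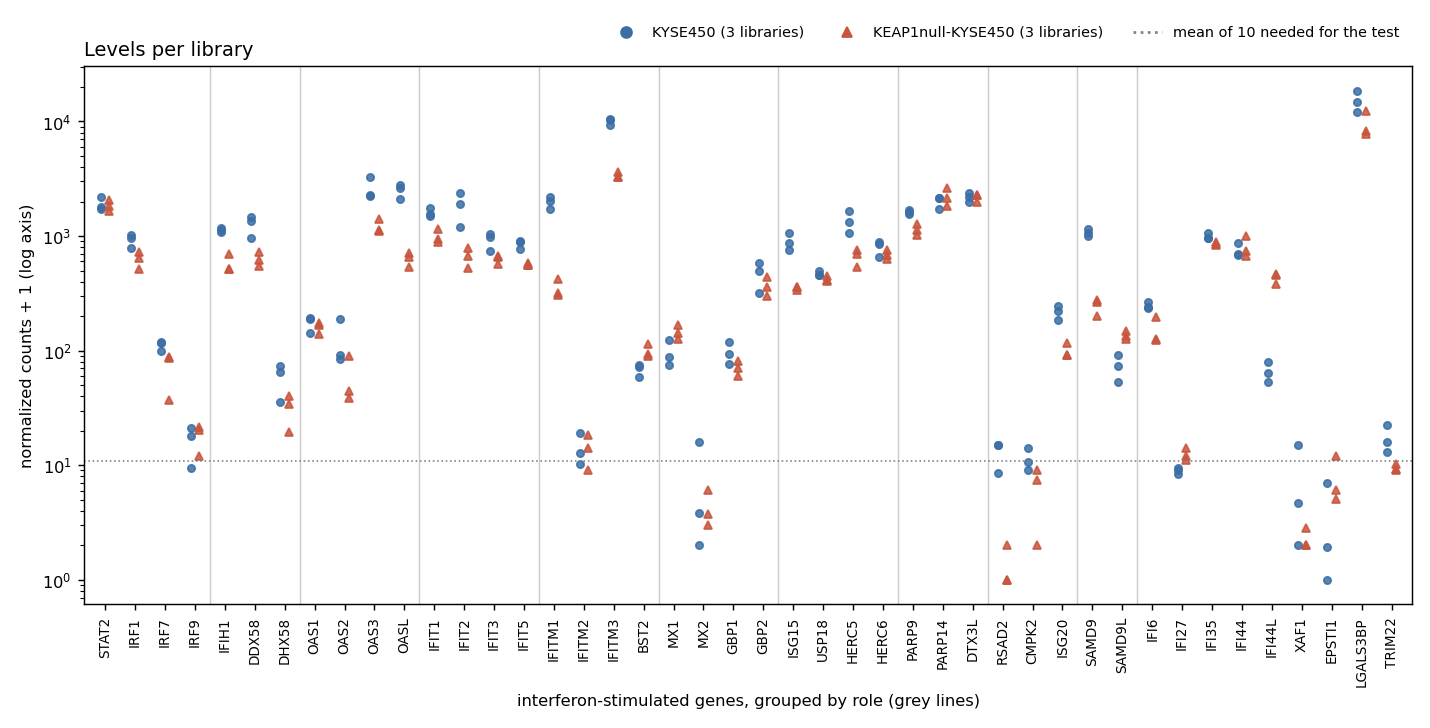
Normalized count plus 1 on a log axis for each of the 44 interferon-stimulated genes, grouped by role, with 1 point per library (circles, KYSE450; triangles, KEAP1null-KYSE450; n = 3 each) and the mean of 10 needed for the test as a dotted line. Levels span from 0 counts to 18498 for LGALS3BP, IFITM1, SAMD9 and OASL show wide gaps downward, as does RSAD2 below the dotted line, and IFI44L shows a gap upward.

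The ISG15 system attaches a ubiquitin-like tag to newly made proteins. ISG15 (chromosome 1, 1001138 to 1014540), the tag itself, was at 1063, 875 and 761 in KYSE450 libraries and at 361, 360 and 334 in KEAP1null-KYSE450 libraries (-1.34, SE 0.14, adjusted p = 9.9e-06). HERC5 (chromosome 4, 88457119 to 88506163), its ligase, was at 1646, 1312 and 1053 against 754, 695 and 539 (-1.002, SE 0.17, adjusted p = 0.00038). The lines were apart for both genes, but HERC5 lay at the edge of the fold threshold and its change was -0.84 without KYSE450 library 1 and -0.86 without KEAP1null-KYSE450 library 3. HERC6, next to HERC5, had a mean of 794 ± 123 (SD, n = 3) in KYSE450 and 686 ± 64.01 in KEAP1null-KYSE450 cells (-0.20, SE 0.14, adjusted p = 0.25). USP18, which removes ISG15 from proteins and dampens receptor signaling, had means of 468 ± 22.8 and 421 ± 22.1 (-0.15, SE 0.13, adjusted p = 0.35), with 36.4% of its 100-base stretches shared with USP41 or another gene model. Thus the tag and its ligase passed both thresholds, and the ligase's neighbour and the deconjugating enzyme did not pass the test.

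The RNA sensors stood just short of the fold threshold. DDX58 (RIG-I), which recognizes RNA with a triphosphate end, was at 1471, 1360 and 970 in KYSE450 libraries and at 723, 622 and 543 in KEAP1null-KYSE450 libraries (-0.996, SE 0.16, adjusted p = 0.00029). IFIH1 (MDA5), which recognizes long double-stranded RNA, was at 1169, 1124 and 1081 against 695, 517 and 516 (-0.98, SE 0.14, adjusted p = 8.4e-05). Each KEAP1null-KYSE450 library lay below each KYSE450 library for both sensors. Without KYSE450 library 3 or without KEAP1null-KYSE450 library 1 both passed the fold threshold, with DDX58 at -1.18 and -1.10 and IFIH1 at -1.01 and -1.12. DHX58 (LGP2), a regulator of the other two, was scarce at 72.7, 63.7 and 34.5 against 33.2, 18.3 and 39.3, and did not pass the test (-0.89, SE 0.39, adjusted p = 0.077). It passed both thresholds without KYSE450 library 3 (-1.21, adjusted p = 0.024) and under quantile normalization (-1.37, adjusted p = 0.014). Almost all 100-base stretches of DDX58 (96.6%) also occur in an overlapping gene model of gencode version 44. Whether the authors' counting used that model is not known, which leaves the count of DDX58 uncertain.

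None of the 4 factors that carry the interferon signal was called in the libraries as deposited. IRF1, a transcription factor that can switch on many of these genes by itself, was at 1028, 958 and 787 in KYSE450 libraries and at 727, 648 and 518 in KEAP1null-KYSE450 libraries (-0.56, SE 0.15, adjusted p = 0.0086). On 4 libraries the adjusted p of IRF1 was 0.15 by edgeR and 0.16 by DESeq2. STAT2 overlapped fully between the lines, at 2203, 1791 and 1715 against 2082, 1818 and 1640 (-0.04, 95% interval -0.31 to 0.23). IRF7, which drives interferon genes themselves, was at 116, 118 and 97.9 against 36.0, 87.7 and 85.8 and did not pass the test (-0.76, SE 0.32, adjusted p = 0.069), but passed both thresholds under quantile normalization (-1.13, adjusted p = 0.013). The lines did not overlap for IRF7, and the first KEAP1null-KYSE450 library lay well below the other libraries of that line. IRF9, the DNA-binding partner of STAT2, was between 8.39 and 20.4 in all libraries (0.18, SE 0.50), but 92.6% of its 100-base stretches also belong to a readthrough gene model, so that its level is uncertain.

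PARP9, DTX3L and PARP14 act in ADP-ribosylation and ubiquitination around interferon signaling, and only PARP9 among these 3 separated the lines. PARP9 was at 1695, 1629 and 1546 in KYSE450 libraries and at 1269, 1117 and 1028 in KEAP1null-KYSE450 libraries (-0.52, SE 0.11, adjusted p = 0.0020). On 4 libraries the adjusted p of PARP9 was 0.068 by edgeR and 0.061 by DESeq2. DTX3L, the partner of PARP9 in a complex, was at 2396, 2202 and 1988 against 2281, 2286 and 1981 (-0.01, 95% interval -0.24 to 0.23). PARP14 was at 2148, 2157 and 1738 against 2615, 2133 and 1811 (0.11, 95% interval -0.19 to 0.41). PARP9 and DTX3L are transcribed away from each other from one shared region on chromosome 3, and the ISRE core printed for DTX3L, at chr3:122564332-122564341, is also the match in the PARP9 promoter.

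Nucleotide-directed effectors were scarce in both lines apart from ISG20. ISG20 (chromosome 15, 88635670 to 88656483), an RNA exonuclease, was at 219, 246 and 184 in KYSE450 libraries and at 116, 90.7 and 90.8 in KEAP1null-KYSE450 libraries (-1.11, SE 0.20, adjusted p = 0.00065). On 4 libraries ISG20 was under the fold threshold, at -0.92 by edgeR and -0.95 by DESeq2. RSAD2 (viperin), which makes a chain-terminating nucleotide, did not reach the filter, with 7.49, 14.2 and 13.99 against 0, 1.02 and 0. The KEAP1null-KYSE450 libraries were all under the floor of 3 reads per library. The observed KYSE450 mean of 11.9 was 4.02-fold above that floor. This fold leaves out counting error in the few KYSE450 reads, so it is not a firm lower bound, and it comes with no test. CMPK2, which lies next to RSAD2 and supplies its substrate, was at 9.63, 8.09 and 13.1 against 6.46, 8.16 and 1.01 and the lines overlapped.

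Among the GTPases, MX1 was higher by adjusted p, though not in every setting. MX1, which traps viral nucleocapsids, was at 122, 86.9 and 74.6 in KYSE450 libraries and at 167, 125 and 142 in KEAP1null-KYSE450 libraries (0.63, SE 0.24, adjusted p = 0.041), without overlap and under the fold threshold. Leaving out any single library other than KYSE450 library 1 brought its adjusted p to between 0.053 and 0.13, and it was 0.33 under quantile normalization (0.29). Its relative MX2 did not exceed 14.97 in any library. The guanylate-binding proteins GBP1 (means 95.3 ± 21.1 and 69.7 ± 10.8, SD, n = 3) and GBP2 (means 464 ± 135 and 365 ± 69.6) overlapped between the lines and did not pass the test, with log2 fold changes of -0.43 (adjusted p = 0.18) and -0.32 (adjusted p = 0.24).

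The remaining 9 genes are induced by interferon but share no single function. IFI44L (chromosome 1, 78619902 to 78646145), a feedback regulator of the antiviral response, stood at 52.4, 77.8 and 62.5 in KYSE450 libraries and at 462, 455 and 380.3 in KEAP1null-KYSE450 libraries (2.74, SE 0.20, adjusted p = 3.3e-07). Its neighbour and paralog IFI44 (78649796 to 78664078) was at 684, 860.2 and 699 against 663, 1003 and 740.5, with full overlap (0.09, 95% interval -0.26 to 0.43). IFI44L thus went from far below IFI44 in counts to within a few fold of it. Per kilobase of annotated exon IFI44L stayed far below, at 5.53 against 367 for IFI44 in KYSE450 cells. In KEAP1null-KYSE450 cells these means were 37.2 and 394. LGALS3BP, a secreted glycoprotein that binds galectins, had the highest level of the 44 genes, at 18498, 14746 and 12072 against 12318, 7838 and 8273 (-0.68, SE 0.17, adjusted p = 0.0062). The first KEAP1null-KYSE450 library lay above the third KYSE450 library for LGALS3BP, and per kilobase its means were 4414 and 2769. On 4 libraries the adjusted p of LGALS3BP was 0.073 by edgeR and 0.043 by DESeq2. IFI6, a mitochondrial and endoplasmic reticulum protein, was at 235, 265 and 241 against 194, 125 and 123 (-0.77, SE 0.20, adjusted p = 0.0076), with no overlap, and 16.4% of its 100-base stretches occur in another gene model. IFI35 and TRIM22 did not pass the test, at -0.21 (adjusted p = 0.13) and -0.82 (adjusted p = 0.20). Under quantile normalization TRIM22 (-1.57, adjusted p = 0.024) and IFI6 (-1.01, adjusted p = 0.0028) passed both thresholds, whereas the adjusted p of IFI6 was 0.14 by edgeR and 0.17 by DESeq2 on 4 libraries. XAF1, EPSTI1 and IFI27 were under the filter, with at most 13.9 in any library, and IFI27 was the one of these 3 whose lines did not overlap, at 8.56, 8.09 and 7.46 against 11.1, 10.2 and 13.1.

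The ratio of neighbouring paralogs or partners within a library does not depend on the scaling between libraries, and 7 such pairs were examined, chosen after their values had been seen. SAMD9 over SAMD9L was 15.6 ± 3.35 (SD, n = 3) in KYSE450 and 1.83 ± 0.229 in KEAP1null-KYSE450 libraries. IFI44L over IFI44 was 0.0855 ± 0.0077 and 0.555 ± 0.127. PARP9 over DTX3L, the pair with the shared promoter, was 0.742 ± 0.0351 and 0.521 ± 0.0338. No pair overlapped between the lines. HERC5 over HERC6 changed by -0.80 on the log2 scale, OAS3 over OAS1 by -0.96, IFITM1 over IFITM3 by -0.94 and IFIT2 over IFIT3 by -0.90. No test is given for these pairs, since they were chosen for these values.

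**Figure D3:**
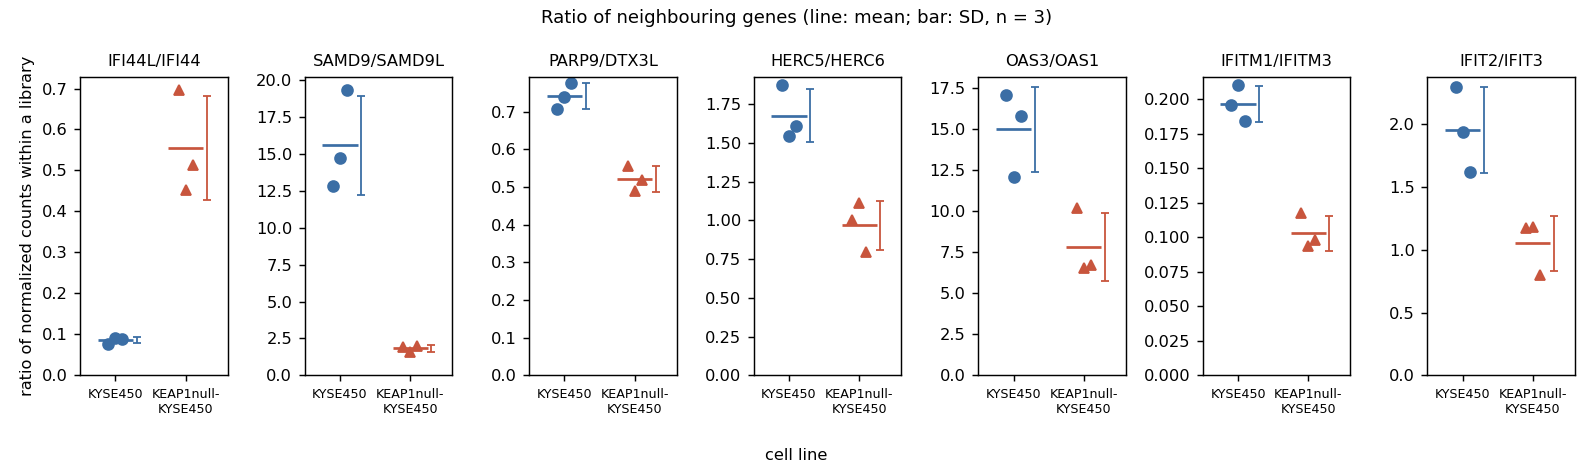
Ratio of normalized counts of 7 neighbouring gene pairs within each library (points, 3 per line), with the mean as a line and the SD as a bar, on linear axes from 0. The ratios of the lines do not overlap for any of the 7 pairs, IFI44L/IFI44 is the one that is higher in KEAP1null-KYSE450 libraries, and SAMD9/SAMD9L goes from 15.6 to 1.83.

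Promoter letters were set beside these changes as a description. All 7 genes with a promoter that fell past both thresholds hold an ISRE core, as do 14 of 16 that were lower by adjusted p, 2 of 3 that were higher and 5 of 10 that did not pass the test. IFI44L, which rose, and MX1 hold the core too, and IFI44L carries the printed 30 bases a second time, at chr1:78620274-78620303. TGACNNNGC, the core of the antioxidant response element that NRF2 binds, occurred in 9 of 34 (26.5%) and in 16.06% of genes in the promoter table. A match gives letters in a window and not a bound site.

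The ligands, receptors and signaling genes around these members were examined from lists by role, together with 58 further interferon-responsive genes outside the 44. Of 12 ligand genes, 10 were at 0 in all 6 libraries, which allows up to 3 reads per library for each of them, and IFNL1 was at 4.28 in a single KYSE450 library and at 0 in the others. IFNE, an epithelial type I interferon gene, was the ligand tested. It stood at 20.3, 24.3 and 27.0 in KYSE450 libraries and at 48.0, 97.9 and 68.6 in KEAP1null-KYSE450 libraries (1.49, SE 0.34, adjusted p = 0.0031), and it is named here after its values were seen. No receptor gene was called among 5 tested. IFNLR1, which binds the type III interferons, was at 466, 477 and 440.1 against 334, 301 and 260.3 (-0.63, SE 0.15, adjusted p = 0.0032). IFNAR1 and IFNAR2 did not pass the test (0.08, adjusted p = 0.51, and -0.22, adjusted p = 0.39).

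Of 16 tested kinases, STATs, IRFs and feedback regulators, 3 fell past both thresholds (18.8%, against 5.98% of all genes tested) and none rose (against 12.2%). STAT3, which carries signals of the interleukin 6 family, was at 19302, 15901 and 15203 in KYSE450 libraries and at 5147, 4405 and 4547 in KEAP1null-KYSE450 libraries (-1.83, SE 0.11, adjusted p = 4.8e-08). SOCS3 and SOCS1 encode feedback inhibitors of JAK kinases. SOCS3 was at 298, 294 and 228 against 50.8, 29.6 and 29.3 (-2.91, SE 0.26, adjusted p = 2.3e-06). SOCS1 was at 89.8, 146 and 89.5 against 30.5, 23.4 and 26.2 (-1.95, SE 0.30, adjusted p = 0.00018). For all 3 genes the lines were far apart. JAK2 (0.47, adjusted p = 0.0091) and IRF2BP2 (0.46, adjusted p = 0.0023) were higher by less than 2-fold.

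Of 13 tested nucleic acid sensors and adaptors, 1 fell past both thresholds (7.69%, near the 5.98% of all genes tested). By adjusted p 7 were lower (53.8%, against 25.5%) and none was higher (against 24.3%). IKBKE, a kinase that phosphorylates IRF3 and IRF7, was at 1487, 1286 and 1294 in KYSE450 libraries and at 585, 489 and 415 in KEAP1null-KYSE450 libraries (-1.46, SE 0.14, adjusted p = 3.9e-06). Among 48 tested further interferon-responsive genes, 6 fell and 3 rose past both thresholds, and 20 were lower (41.7%) and 7 higher (14.6%) by adjusted p, against 25.5% and 24.3% of all genes tested. IFI16, a nuclear DNA sensor, had the largest fall of these, from 10063 ± 982 to 2530.1 ± 225 (SD, n = 3; -1.99, SE 0.10, adjusted p = 1.4e-08). DDX60 (-1.53, adjusted p = 3.2e-05), a helicase that aids RIG-I, LAMP3 (-1.51, adjusted p = 1.4e-05), a lysosomal membrane protein, and GBP3 (-1.27, adjusted p = 0.00076), a guanylate-binding protein, also fell. CASP1, the protease of the inflammasome, rose from 1867 ± 152 to 4422 ± 231 (1.24, SE 0.10, adjusted p = 6.8e-07), and RNF213, a large ubiquitin ligase, from 2929 ± 628 to 6014 ± 868 (1.05, SE 0.14, adjusted p = 7.7e-05). RNF213 was under the fold threshold without KYSE450 library 2 (0.95) or 3 (0.97) or KEAP1null-KYSE450 library 2 (0.93). UBA7, the activating enzyme for ISG15, rose from a few counts, at 6.42, 3.03 and 1.86, to 20.3, 29.6 and 45.4 (2.82, SE 0.58, adjusted p = 0.0016), and is named after its values were seen. KYSE450 libraries 2 and 3 were at or under the floor of 3 reads for UBA7. Its log2 fold change ran from 1.57 to 3.20 over the other settings, so its size is uncertain. Over these 83 tested pathway and further genes the median log2 fold change was -0.22, with 10 lower (12.0%) and 4 higher past both thresholds, where all genes tested gave 5.98% and 12.2%.

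**Figure D4:**
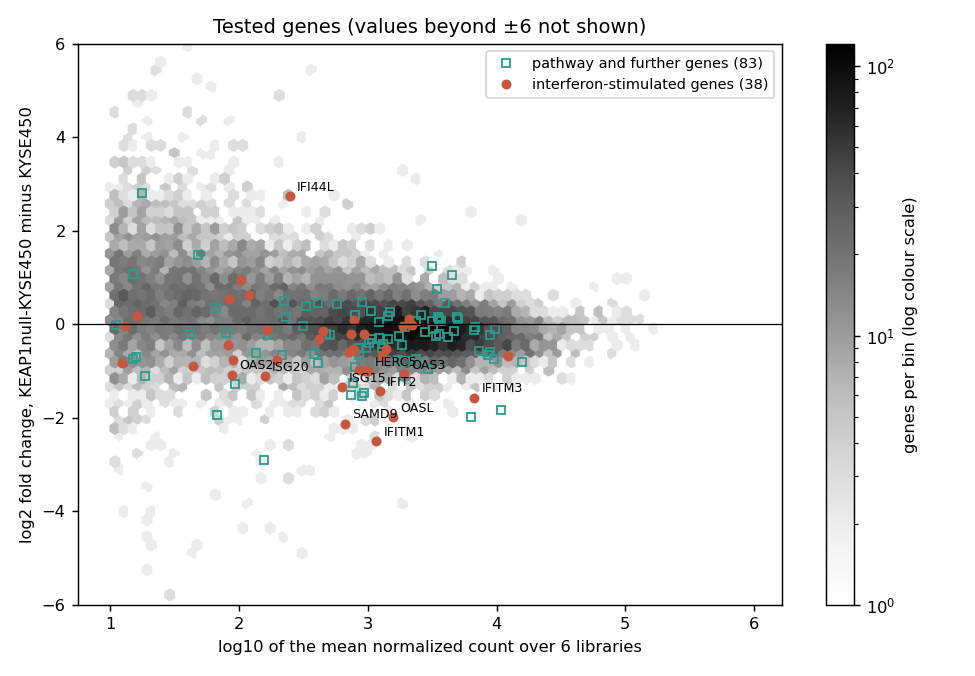
Log2 fold change (KEAP1null-KYSE450 minus KYSE450) against log10 of the mean normalized count over 6 libraries for all tested genes (grey bins, shaded by the number of genes), with the 38 tested interferon-stimulated genes as filled points and the 83 pathway and further genes as open squares. The called members other than IFI44L lie below 0 across levels from OAS2 to IFITM3, and 71 genes beyond 6 in either direction are not shown.

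Neighbouring genes were examined because members lie in clusters on the chromosomes. Over genes within 1 Mb with a mean of at least 100, the median log2 fold change around the 44 members ran from -0.41 to 0.45, with a median of -0.17. It was 0.45 around HERC5, 0.21 around IFI44L and 0.02 around SAMD9, and -0.37 around IFITM1 and -0.40 around OAS3. Of 8 squamous epithelium markers, 3 were lower past both thresholds (37.5%, against 5.98% of all genes tested). Another 1 of the 8 was higher past both, near the share of 12.2% among all genes tested. By adjusted p 6 of the 8 were lower (75%, against 25.5%) and 1 was higher (12.5%, against 24.3%). COL1A1 was at 839, 657 and 607 against 333, 401 and 431. Of the other fibroblast and endothelium markers, COL1A2, DCN and LUM did not exceed 14.2, PECAM1 was at 0 in all 6 libraries, VWF was between 35.4 and 67.6, and CDH5 was at 10.7, 20.2 and 28.9 against 1.85, 3.06 and 1.01. Their part in the changes of the interferon-stimulated genes was not tested.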

How the data were processed

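RNA was sequenced from 3 KYSE450 and 3 KEAP1null-KYSE450 libraries. The authors deposited 1 table of normalized counts, which is the signal analysed here. The submitters' processing notes name FastQC 0.11.5, cutadapt 1.12, STAR 2.6.90c and featureCounts 1.5.1 and the hg38 build. Strand use in counting is not given in the sources used here. In every library 100% of the deposited values were whole multiples of 1 step (tolerance 0.02 reads), which gave whole reads, although 1 KYSE450 and 1 KEAP1null-KYSE450 library had a step very near 1. Columns carry no replicate number, so libraries are numbered by their order within a line. Groups came from sample labels.

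limma 3.58.1 (under R 4.3.3, with a trended eBayes prior, two-sided) was run on log2(normalized count + 1) for the 16701 genes whose mean reached 10, with Benjamini-Hochberg adjustment. edgeR 4.0.16 and DESeq2 1.42.0 were run as alternatives on whole reads of 4 libraries, and of all 6 as an addition made after seeing the data. Scripts were tested on simulated data. Positions, exon lengths and shared 100-base stretches came from gencode version 44 (hg38), where all 44 members matched. Of the 16701 tested genes 16630 were found in it, and the authors' gene models may differ from it. RefSeq promoters matched 34 members.

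Members and lists were chosen with earlier results of these data known. Values in each library are given for members with adjusted p under 0.05 and for the 10 of highest mean. From the other lists up to 4 genes in each direction are named, with a mean of at least 50, past both thresholds or otherwise by adjusted p. The values of 1 gene on these lists are not reported here.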

Additional observations from a re-analysis of the deposited data

How the results depend on the processing

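No paired analysis was possible because the table's columns carry no replicate number. The 10 members that fell became 19 with no fold cutoff and 4 in limma's treat test against a 2-fold change. By edgeR and by DESeq2 on 4 libraries 7 members fell and 1 rose. On all 6 libraries 9 fell by edgeR and 11 by DESeq2, and 1 rose by each. Leaving out 1 library gave 7 to 13 lower and 1 or 2 higher members. The 1 member that rose became 3 with no cutoff, and 2 without KYSE450 library 1. Among pathway and further genes, the 4 higher became 2 with a mean of at least 100, 10 with no cutoff and 0 under treat (limma; 2 at an unadjusted p under 0.05, and 4 by edgeR and by DESeq2), and the 10 lower became 34 with no cutoff and 3 under treat. Leaving out 1 library gave 3 to 4 higher and 10 to 11 lower. Over all genes, 2045 higher and 999 lower became 4060 and 4251 with no cutoff, 626 and 395 under treat, and 1388 and 1289 under quantile normalization. On whole reads of 4 libraries edgeR called 1826 higher and 872 lower, and DESeq2 1623 and 877.

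Of 208 results for the 11 called members, 26 were past the thresholds no longer and 0 reversed. OAS2 and HERC5 lost the call in 9 settings each, and OAS3, ISG20, IFIT2 and ISG15 in fewer. Quantile normalization added the calls of IRF7, DHX58, IFI6 and TRIM22 and lost those of OAS3 and HERC5. Reversals occurred in genes close to 0. STAT2 was 0.0611 under quantile normalization, 0.0298 by edgeR on 4 libraries and 0.0685 and 0.0404 without KYSE450 library 1 and KEAP1null-KYSE450 library 3 (range without 1 library -0.1313 to 0.0685). IRF9 was -0.4251 under quantile normalization and -0.1775 without KYSE450 library 3 (range to 0.4373). IFITM2 was 0.0034 rescaled to the same total, 0.5820 by edgeR and 0.5551 by DESeq2 on 4 libraries, 0.0163 by edgeR on 6, and 0.2211 and 0.2543 without KYSE450 library 2 and KEAP1null-KYSE450 library 3 (range from -0.2610). DTX3L was 0.0250 rescaled, 0.1003 under quantile normalization, 0.0951 and 0.0191 by edgeR on 4 and 6 libraries, 0.0651 and 0.0008 by DESeq2, and 0.0580 and 0.0610 without KYSE450 library 1 and KEAP1null-KYSE450 library 3 (range from -0.0765). PARP14 ranged from -0.0284 to 0.2366 and IFI44 from -0.0858 to 0.2120 without 1 library, lowest without KEAP1null-KYSE450 libraries 1 and 2. KEAP1 was 0.0156 rescaled, 0.1351 under quantile normalization, 0.0112 by edgeR on 6, and 0.0339 and 0.0403 without KYSE450 library 1 and KEAP1null-KYSE450 library 2 (range from -0.0725). The cause was not tested. Counts near the floor of 3 reads limit RSAD2, XAF1, UBA7 and the ligands.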
